A study of Mus musculus with 15 samples.

Results

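The ATR checkpoint and fork protection genes are 10 genes whose products sense stalled DNA replication and pass the signal to the checkpoint kinase CHK1: Atr, Atrip, Rad17, Rad1, Hus1, Topbp1, Timeless, Tipin, Clspn and Chek1. They were chosen by name. All 10 were measured, each by 1 probe set annotated with only that symbol, out of 19296 genes with such a probe set. RNA was measured on 15 Affymetrix mouse arrays from wild-type C57Bl/6 mice, all labelled male. The arrays comprised 5 of young haematopoietic stem cells (HSC) and 4 of young granulocyte/macrophage progenitors (GMP), from mice of 6 to 12 weeks, and 3 of old HSC and 3 of old GMP, from mice of 22 to 30 months. HSC were double-sorted as Lin-/cKit+/Sca1+/Flk2-/CD48-/CD150+ cells and GMP as Lin-/cKit+/Sca1-/FcyR+/CD34+ cells. The labels name neither single animals nor pools, so the spread between arrays may be partly technical. Levels are log2 expression values, and a difference of 1 log2 is a 2-fold difference. In these bulk samples fewer cells of a type and less RNA per cell cannot be told apart.

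When a replication fork stalls, the helicase runs ahead of the polymerase and leaves single-stranded DNA, which the protein RPA coats. The kinase ATR is brought there by its partner ATRIP. RAD17, with a clamp loader, places the ring of RAD9, RAD1 and HUS1 beside the site, and TOPBP1 binds that ring and switches ATR on. TIMELESS and TIPIN form a complex that travels with the fork, and CLASPIN (Clspn) holds CHK1 (Chek1) within reach of ATR. CHK1 then slows origin firing and entry into mitosis. HSC divide rarely in the adult marrow, whereas GMP divide often.

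The sorted populations carried the markers of their gates. All 8 measured HSC markers, such as Procr and Hlf, were higher in HSC than in GMP at both ages, and 10 of 10 GMP markers, such as Mpo and Elane, were lower in young HSC than in young GMP (9 of 10 in old mice). No HSC marker was called between old and young HSC, and of the GMP markers only Cd34 was, at a lower level in old HSC. The mean of the GMP markers on an array was 7.0 to 7.27 in HSC and 10.34 to 10.81 in GMP. Of markers of 7 other cell types, Slc4a1 and Klrb1c were called higher and Nkg7 lower in old HSC. Several features of the arrays moved with age. Xist RNA, made from an inactive X chromosome, read 5.46 to 5.84 log2 on the 6 old arrays but 8.92 to 11.51 on 7 of the 9 young arrays, against the male label. The mean of 3 Y-linked genes was 8.45 to 8.80 on the old arrays and 4.94 to 8.47 on those 7. The young arrays at the level of the old ones were young HSC replicate 1 and young GMP replicate 1. Some of the 7 carried both signals: Xist and the Y-linked Eif2s3y read 10.02 and 9.04 on young HSC replicate 3. They read 10.26 and 9.04 on young HSC replicate 5, and 8.92 and 8.89 on young GMP replicate 3. On the arrays numbered 4 Eif2s3y read only 4.02 in HSC and 4.32 in GMP. Age and the sex-linked signal moved together, so their parts cannot be fully told apart. The interquartile range of an array, the width of the middle of its values, was 1.96 to 2.33 log2 in old HSC and 2.21 to 2.69 in young HSC. The arrays numbered 4 had the narrowest range of the young groups, 2.21 in HSC and 2.13 in GMP.

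In old HSC 5 of the 10 genes fell: Tipin, Chek1, Rad1, Hus1 and Topbp1, by 1.32-fold to 1.87-fold, and 0 rose. For each of these 5 the 3 old HSC arrays lay below all 5 young HSC arrays. Atr and Atrip, the kinase and its partner, and Timeless and Clspn, which act with Tipin and Chek1, were not called and differed by 0.10 log2 or less. Among all genes 11.5% were called with age in HSC by limma at an adjusted p under 0.05, 9.22% lower and 2.25% higher. Old and young groups lay apart, old lower, for 7.69% of all genes. The median difference was -0.43 log2 over the 10 genes and 0.03 over all genes. All genes are a dimmer comparison, since genes as bright as these 10 had medians of -0.30 to -0.11. Of the 5, only Tipin and Chek1 were called after quantile normalization, which gives all arrays the same distribution.

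**Figure D1:**
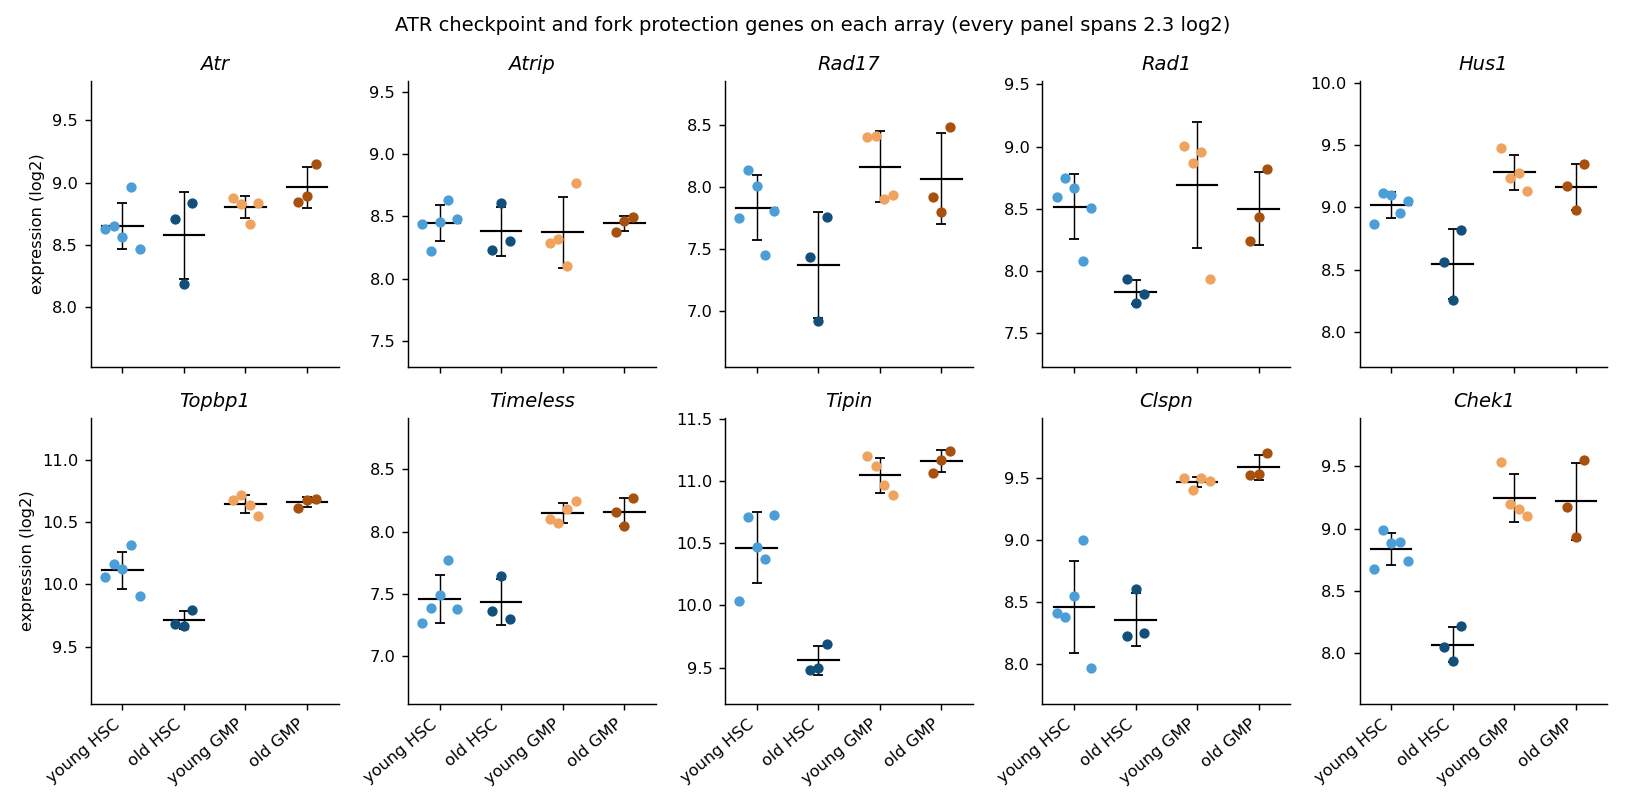
Expression (log2, vertical axis) of the 10 genes on each of the 15 arrays, by group. Points are arrays, ordered by replicate number within a group, and lines with bars give the mean and SD. Tipin and Chek1 are lowest in the 3 old HSC arrays, while the HSC groups overlap for Timeless and Clspn.

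Tipin (chr9:64281491-64305422 in GRCm38.p6), the smaller partner of the fork protection complex, read 9.48, 9.50 and 9.69 log2 on old HSC replicates 1 to 3. On young HSC replicates 1 to 5 it read 10.03, 10.71, 10.47, 10.38 and 10.73. The lowest young array, replicate 1, was one of those with low Xist, and it still lay above every old HSC array. Tipin fell 1.87-fold in old HSC (log2 -0.91 ± 0.14, SE; n = 3 old and 5 young arrays; limma adjusted p = 0.00193). It was called under 25 of the 26 settings, the main fit included. These include the fit with each array's interquartile range as a covariate (-0.81, limma adjusted p = 0.0461). The exception kept only the young arrays of low Xist, with young HSC replicate 1 alone assumed to vary like the other groups (-0.47). Many of the 26 settings could not move the estimate of -0.91, so the count overstates the checks made. Fits without a GMP array, or with another choice of probe sets, genes or variance model, changed only its spread or adjustment.

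Chek1 (chr9:36708482-36726658), the kinase that ATR activates, read 8.05, 7.94 and 8.22 on the old HSC arrays. The young HSC arrays read 8.67, 8.99, 8.88, 8.89 and 8.74. The gap between the groups, from 8.22 to 8.67, was wider than the range within either group. Chek1 fell 1.70-fold (-0.77 ± 0.14; limma adjusted p = 0.00399). It was called under 24 of 26 settings, many of which, as for Tipin, could not move its estimate. It was not called with the interquartile range as a covariate (-0.58, adjusted p = 0.142) or with young HSC replicate 1 as the only young HSC array (-0.61, adjusted p = 0.138).

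Rad1 and Hus1, subunits of the clamp around DNA, and Topbp1, which the clamp recruits, fell by smaller steps or with more spread. Rad1 (chr15:10486018-10499063) read 7.93, 7.75 and 7.81 on the old HSC arrays and 8.59, 8.75, 8.67, 8.08 and 8.51 on the young ones. Young HSC replicate 4, at 8.08, was the young array nearest the old ones. Rad1 fell 1.61-fold (-0.69 ± 0.21; limma adjusted p = 0.0380), and its difference was -0.80 without replicate 4 of both young groups (limma adjusted p = 1.92e-04). Leaving out any 1 old HSC array, or young HSC replicate 1, 2, 3 or 5, ended the call (adjusted p from 0.0606 to 0.162). With the interquartile range as a covariate its difference was -0.13 (adjusted p = 0.86).

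Hus1 (chr11:8993137-9011236) read 8.56, 8.26 and 8.82 on the old HSC arrays and 8.87, 9.11, 9.10, 8.95 and 9.05 on the young ones. Old replicate 3 and young replicate 1 nearly met. Hus1 fell 1.39-fold (-0.47 ± 0.13; limma adjusted p = 0.0280). Topbp1 (chr9:103305167-103350428) read 9.69, 9.66 and 9.80 on the old arrays and 10.06, 10.16, 10.12, 10.31 and 9.90 on the young ones, a 1.32-fold lower level (-0.40 ± 0.10; limma adjusted p = 0.0231). After quantile normalization, which gives all arrays the same distribution, the difference was -0.11 for Topbp1 (adjusted p = 0.591) and -0.24 for Hus1 (adjusted p = 0.167), and Rad1 was at -0.57 (adjusted p = 0.0583). Leaving out any 1 of old HSC replicates 1 and 2 and young HSC replicates 2 and 3 ended the calls of Hus1 and Topbp1 (adjusted p from 0.0521 to 0.205), and Hus1 also without young HSC replicate 5 (0.0537). Bright genes as a whole read lower in old HSC. With all genes cut into 10 equal groups by mean brightness, the median difference of the group a gene was in was -0.29 for Tipin and Topbp1, -0.30 for Chek1, Hus1 and Clspn, -0.23 for Rad1, Atr and Atrip and -0.11 for Timeless and Rad17. After quantile normalization these medians lay between -0.03 and 0.01. Relative to genes of its brightness Topbp1 was at -0.11 log2 before and -0.08 after quantile normalization, Tipin at -0.62 and -0.60, and Chek1 at -0.46 and -0.59. Rad1 was at -0.46 and -0.55, Hus1 at -0.17 and -0.21, and Rad17, not called, at -0.35 and -0.47. The other genes not called were at 0.15 and 0.16 (Atr), 0.16 and 0.18 (Atrip), 0.20 and 0.15 (Clspn) and 0.09 and -0.06 (Timeless).

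Rad17 (chr13:100617164-100651061), which loads the clamp, had the widest spread of the 10 genes in old HSC, at 7.44, 6.92 and 7.76, against 7.46 to 8.14 in young HSC. The groups overlapped, and the difference of -0.46 ± 0.20 was not called (limma adjusted p = 0.125). Without young HSC replicate 4, the lowest young array, it was called (-0.55, adjusted p = 0.0401), as it was without old HSC replicate 3 (-0.65, adjusted p = 0.045) and with array weights (-0.49, adjusted p = 0.00854), and with the interquartile range as a covariate it was 0.06. Of Rad1, Hus1 and Rad17, then, only Rad17 did not pass the test, although its difference of -0.46 was close to the -0.47 of Hus1. The genes of the remaining ring subunit, Rad9a at 0.03 and Rad9b at -0.34, were not called.

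**Figure D2:**
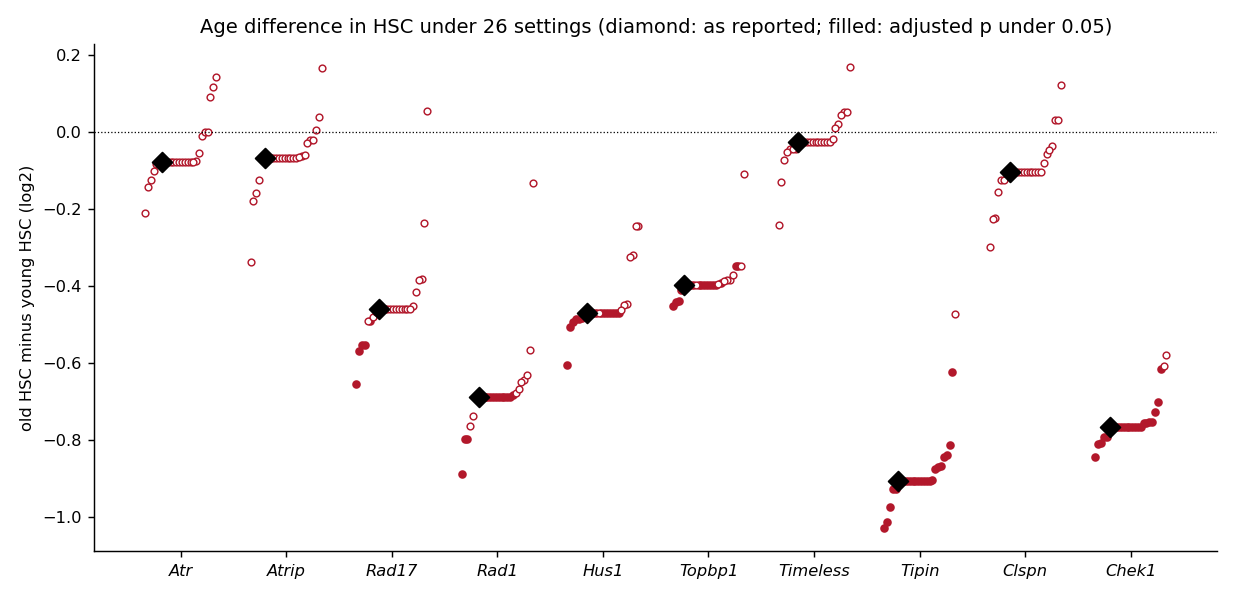
Difference between old and young HSC (log2, vertical axis) for each gene under 26 settings. The diamond is the value as reported, filled points have a limma adjusted p under 0.05, and points of a gene are sorted by value. Tipin was called under 25 settings and Chek1 under 24, while Atr, Atrip, Timeless and Clspn were called under 0. Many settings, such as the fits without a GMP array, could not move the difference and repeat the value as reported.

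Atr (chr9:95857597-95953217) read 8.70, 8.18 and 8.84 in old HSC and 8.47 to 8.96 in young HSC. Its difference of -0.08 ± 0.14 had a 95% interval of -0.38 to 0.22, so a decrease of more than 1.30-fold or an increase of more than 1.17-fold lay outside it. Atrip (chr9:109059747-109074124) ranged from 8.23 to 8.60 in old HSC and from 8.22 to 8.63 in young HSC, with a difference of -0.07 ± 0.14 (95% interval -0.36 to 0.22). The kinase and its partner turned to small increases after quantile normalization, 0.14 and 0.17 (limma adjusted p = 0.604 and 0.589).

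Timeless (chr10:128232063-128252941), the partner of Tipin, read 7.36, 7.64 and 7.30 in old HSC and 7.26, 7.39, 7.49, 7.77 and 7.38 in young HSC. The groups overlapped throughout, and the difference was -0.02 ± 0.12 (95% interval -0.28 to 0.23; limma adjusted p = 0.904). Clspn (chr4:126556957-126594533), the adaptor of Chek1, read 8.23, 8.60 and 8.25 in old HSC and 8.42, 8.38, 8.55, 9.0 and 7.97 in young HSC. Its young HSC arrays had the widest range of the 10 genes in that group, and the difference was -0.10 ± 0.16 (95% interval -0.44 to 0.24; limma adjusted p = 0.680). For Clspn the sign turned after quantile normalization (0.12) and for both genes without replicate 4 of both young groups (0.03 for Clspn and 0.05 for Timeless), always uncalled.

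Genes whose products work as partners were also set against each other within each array, for 4 pairs chosen after the values were seen. The values are therefore a description. An exact permutation test over the HSC arrays gave an adjusted p of 0.143 for Tipin minus Timeless and for Chek1 minus Clspn. Before adjustment over the 4 pairs the p of this test was 0.0357 for Tipin minus Timeless, the smallest that 56 assignments allow. For Chek1 minus Clspn it was 0.0714. Because the pairs were chosen from the values, the test cannot serve as support. The size of such a difference on its own has no meaning, because the probes differ. Tipin minus Timeless was 2.12, 1.86 and 2.40 log2 on the old HSC arrays and 2.77, 3.33, 2.98, 2.60 and 3.35 on the young ones, with no overlap. The difference between old and young HSC was -0.88. It includes the unlike shifts of all genes of their brightness, -0.29 for Tipin and -0.11 for Timeless. In GMP it was 3.00 ± 0.12 in old arrays (SD, n = 3) and 2.90 ± 0.22 in young arrays (n = 4).

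Chek1 minus Clspn was -0.18, -0.67 and -0.03 on the old HSC arrays and 0.26, 0.61, 0.33, -0.11 and 0.77 on the young ones. The groups overlapped through young HSC replicate 4, and the difference was -0.67. Atr minus Atrip differed by -0.01 and Rad1 minus Hus1 by -0.22 between old and young HSC, with overlapping groups.

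**Figure D3:**
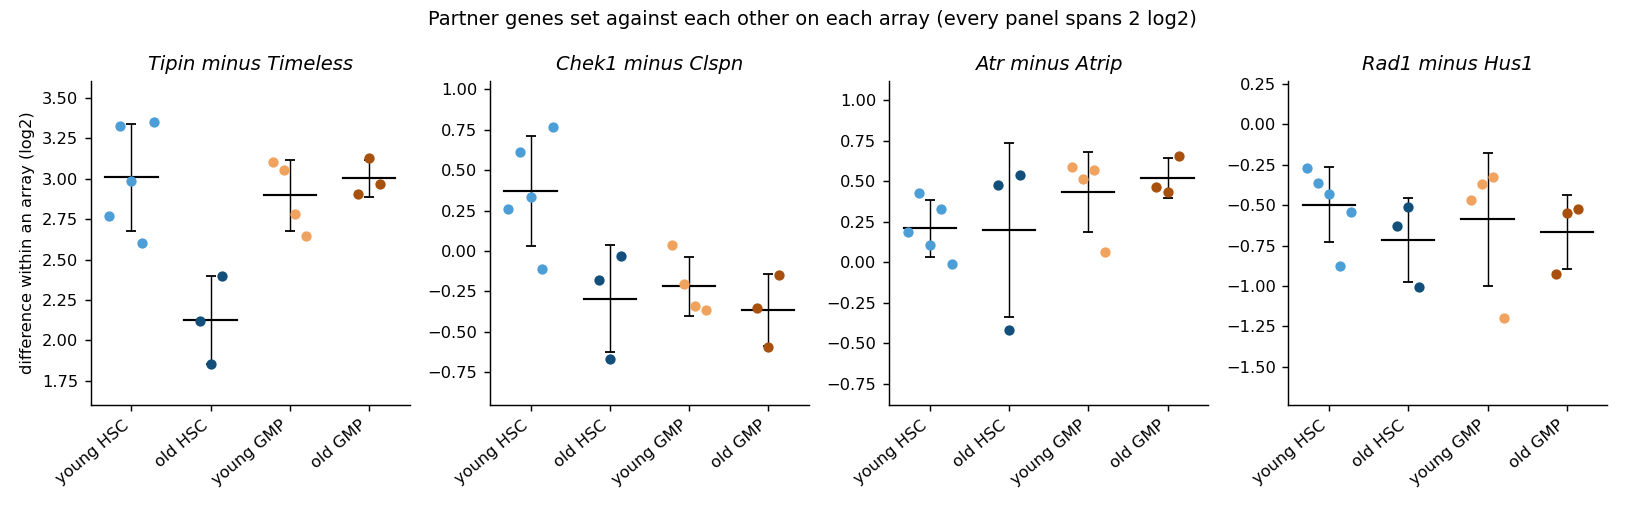
Difference between 2 partner genes on the same array (log2, vertical axis) for 4 pairs, by group. Points are arrays and lines with bars give the mean and SD. For Tipin minus Timeless the old HSC arrays, from 1.86 to 2.40, lie below the young HSC arrays, from 2.60 to 3.35.

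In GMP 0 of the 10 genes changed with age by limma, with 0 at an unadjusted p under 0.05. Among all genes 0% were called and 870 of 19296 had an unadjusted p under 0.05. Differences ran from -0.19 (Rad1) to 0.16 (Atr), 4 of them below 0, with a median of 0.01. Tipin read 11.06, 11.17 and 11.24 in old GMP and 11.20, 11.12, 10.97 and 10.89 in young GMP, a difference of 0.11 ± 0.15 (95% interval -0.20 to 0.42). Chek1 read 9.17, 8.93 and 9.55 in old GMP and 9.53, 9.20, 9.15 and 9.10 in young GMP, a difference of -0.03 ± 0.14 (95% interval -0.33 to 0.28). The lower bounds of these intervals, -0.20 for Tipin and -0.33 for Chek1, did not reach the differences of -0.91 and -0.77 seen in HSC. Those HSC differences had 95% intervals of their own, -1.20 to -0.61 and -1.06 to -0.48. The gap between the age differences, given below, passed the test for neither gene over all arrays.

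Topbp1 lay within 10.55 to 10.72 on all 7 GMP arrays, the narrowest range of the 10 genes in GMP. Rad1 was the gene most open to a single array: young GMP read 9.01, 8.86, 8.95 and 7.94, with replicate 4 far below the rest, and old GMP read 8.24, 8.43 and 8.82. Without young GMP replicate 4 the age difference was -0.44 (limma adjusted p = 0.473) and the groups did not overlap. Clspn was the only gene whose old and young GMP arrays lay apart, at 9.52, 9.53 and 9.70 against 9.40 to 9.50. The group means differed by only 0.12 log2, and the nearest arrays, at 9.52 and 9.50, almost met. Groups lay apart in either direction for 6.83% of all genes.

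The age difference in HSC was lower than that in GMP for all 10 genes, but for 0 did the difference between them pass the test, with 3 at an unadjusted p under 0.05 by limma. Among all genes 0.0933% passed. The gap was -1.02 ± 0.20 for Tipin (limma adjusted p = 0.0751), -0.74 ± 0.20 for Chek1 (limma adjusted p = 0.221) and -0.41 ± 0.15 for Topbp1 (limma adjusted p = 0.362). Tipin passed without young HSC replicate 1 (-1.13, adjusted p = 0.0137), without young HSC replicate 4 (-1.04, adjusted p = 0.0239) and without replicate 4 of both young groups (-0.99, adjusted p = 0.0348). With arrays weighted by quality Tipin, Chek1 and Topbp1 passed. With only the young arrays of low Xist, 1 per cell type, the gap was -0.43 for Tipin (adjusted p = 0.886) and -0.30 for Chek1 (adjusted p = 0.9), and after quantile normalization it was -0.15 for Topbp1 (adjusted p = 0.783).

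**Figure D4:**
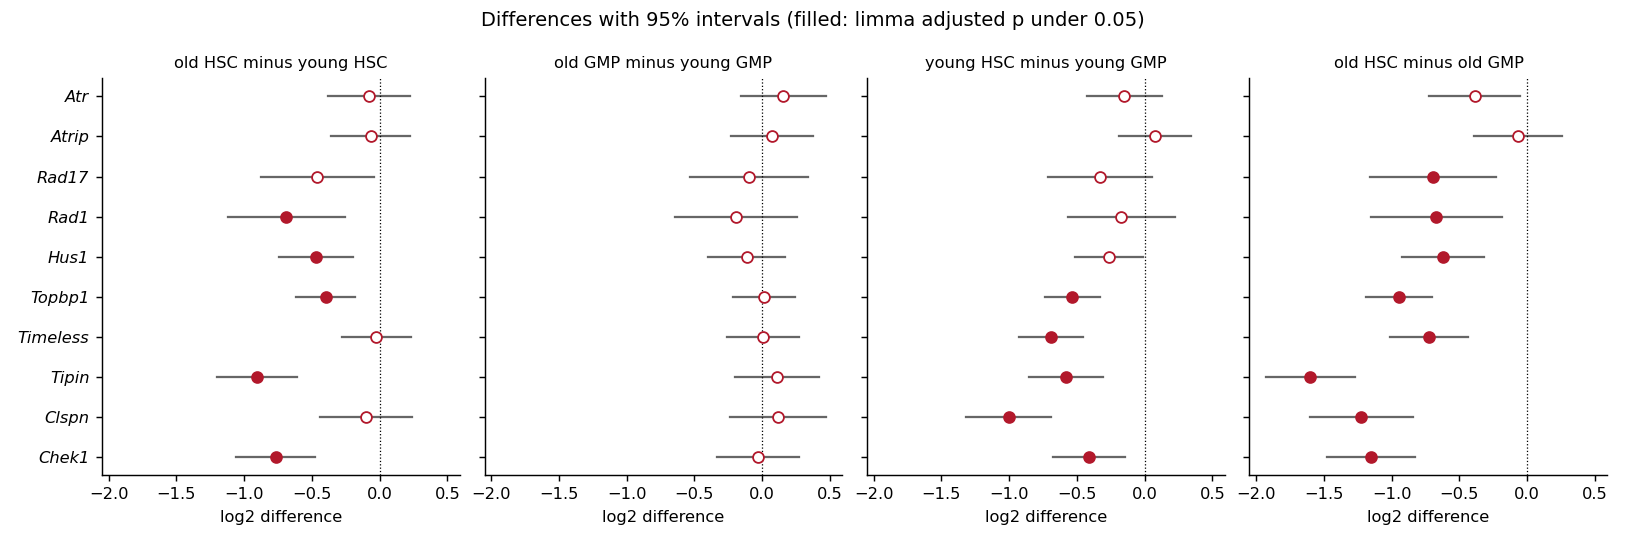
Difference between groups (log2, horizontal axis) with its 95% interval for each of the 10 genes in 4 comparisons, filled where the limma adjusted p is under 0.05. With age, 5 points are filled in HSC and 0 in GMP; between the cell types, 5 are filled at the young age and 8 at the old. All filled points lie below 0.

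Of the 10 genes, 5 were lower in HSC than in GMP in young mice and 8 in old mice, and 0 were higher. In young mice 5 of 10 genes were called, all lower in HSC: Clspn, Timeless, Tipin, Topbp1 and Chek1. Among all genes 24.6% were called in young mice, 10.9% lower. Clspn was 2.00-fold lower (log2 -1.0 ± 0.15; n = 5 HSC and 4 GMP arrays; limma adjusted p = 3.53e-05), with young HSC at 7.97 to 9.0 and young GMP at 9.40 to 9.50. Timeless was 1.61-fold lower (-0.69 ± 0.11; adjusted p = 9.57e-05 by limma), at 7.26 to 7.77 in HSC and 8.07 to 8.24 in GMP. Tipin, Topbp1 and Chek1 were 1.50-fold, 1.45-fold and 1.33-fold lower. The young HSC and GMP arrays lay apart for these 5 and for Hus1, whose difference of -0.26 was not called (limma adjusted p = 0.125), against 21.3% of all genes in either direction and 9.51% lower in HSC. Between the young arrays of low Xist, 1 of HSC and 1 of GMP, the differences were -1.17 for Tipin and -0.86 for Chek1, against -0.58 and -0.41 over all young arrays. A comparison of single arrays has no replicate check of its own.

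In old mice 8 of 10 genes were called, all lower in HSC, every gene but Atr and Atrip. Among all genes 22.2% were called in old mice, 13.0% lower. Tipin was 3.03-fold lower in old HSC than in old GMP (-1.60 ± 0.16; n = 3 and 3 arrays; limma adjusted p = 3.42e-07), against 1.50-fold in young mice. Clspn was 2.33-fold lower (-1.22 ± 0.18), Chek1 2.22-fold (-1.15 ± 0.15), Topbp1 1.93-fold (-0.95 ± 0.12) and Timeless 1.65-fold (-0.72 ± 0.14). Rad17, Rad1 and Hus1 were 1.62-fold, 1.59-fold and 1.54-fold lower. Without old HSC replicate 1, old HSC replicate 2 or old GMP replicate 3, Rad17 and Rad1 were not called, and Rad1 was also lost without old HSC replicate 3, old GMP replicate 2 or young HSC replicate 1, 3 or 5. With the interquartile range as a covariate, 6 genes were called, and Rad1 was at -0.37 (adjusted p = 0.109) and Rad17 at -0.42 (adjusted p = 0.0748). The old groups lay apart for 9 genes, all but Atrip, against 34.7% of all genes in either direction and 18.4% lower in HSC. The change of each cell type difference with age is the same quantity as the gap between the age differences given above, and it passed the test for 0 genes.

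The order of the 4 group levels differed between genes, as a description that rests on which steps were called. Atrip had group means within 0.08 log2 of each other, from 8.37 to 8.45, and Atr within 0.39, with no comparison called for either, although the old HSC and old GMP arrays of Atr lay apart. Clspn and Timeless had a GMP level and an HSC level, with old and young arrays overlapping or nearly meeting within each. Tipin, Chek1 and Topbp1 had GMP highest at both ages, young HSC next and old HSC lowest, with both steps called over all arrays and no step with age within GMP. The Chek1 step between the young cell types was not called without young GMP replicate 1 (-0.32, limma adjusted p = 0.0971). Nor was it without young HSC replicate 1 (-0.37, adjusted p = 0.0567). After quantile normalization the Topbp1 step with age in HSC was not called (-0.11, adjusted p = 0.591). Rad1, Hus1 and Rad17 were lowest in old HSC too, and for these 3 the step between young HSC and young GMP was not called over all arrays. That step was called for Rad1 without young GMP replicate 4 (-0.42, adjusted p = 0.0444), for Hus1 after quantile normalization (-0.29, adjusted p = 0.0398), and for Hus1 and Rad17 with the interquartile range as a covariate (-0.32 and -0.47, adjusted p = 0.0192 and 0.00883).

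For the genes whose group means spanned at least 1 log2, the most similar genes of the table were found by the root mean square difference over the 15 arrays, after centring each gene. The nearest to Tipin were Spc25, of the kinetochore, at 0.12 log2, the primase subunit Prim1 at 0.13 and Cks2, a partner of cyclin-dependent kinases, at 0.13. The nearest to Chek1 were Prkrip1 at 0.11, and Mcm4 and Mcm3, of the replicative helicase, at 0.12 and 0.13. Aunip, at 0.15, Kntc1, of the kinetochore, at 0.17, and the centrosome kinase gene Nek2, at 0.18, were nearest to Clspn. These genes were chosen for their likeness over the same arrays, so their differences between groups are not given as results.

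Promoters of 9 of the 10 genes were in the RefSeq table for GRCm38.p6, as windows from 250 bases before to 50 bases after the start of transcription. The start used for a window is not always the edge of the gene coordinates. It lies inside them for Topbp1, Clspn, Timeless, Hus1 and 1 of the 2 windows of Rad1. Tipin was the gene without an entry. The E2F words TTTGGCGC, TTTCCCGC, TTTCGCGC and TTTGCCGC, which bind factors of the G1/S transition, were searched on both strands and found in the windows of Clspn and Topbp1, against 2.26% of all 32851 windows. CCAAT, the word of NF-Y, was in those of Atrip and Clspn, against 37.4%. The CHR words TTTGAA and TTTAAA were in that of Hus1, against 27.6%. Windows without an E2F word were also those of Rad1 and Hus1, called lower with age in HSC, and of Atr, Atrip, Timeless and Rad17, not called. A link between these words and the age differences was not tested. The 150 bases before the start are shown for 3 genes picked with their age differences known. Chek1 fell with age and holds none of these words in its window. Topbp1 fell less and holds an E2F word 122 bases before the start, and Clspn was not called with age. In Clspn both NF-Y words lie in the bases shown, and its E2F word starts 22 bases after the start and is not shown. All bases shown for Topbp1, its E2F word included, lie within the coordinates of the gene, chr9:103305167-103350428. The NF-Y word of Clspn nearer the start also lies within the coordinates of its gene, chr4:126556957-126594533. Capitals mark E2F and NF-Y words, here on the reverse strand.
Chek1, minus strand, chr9:36726659-36726808: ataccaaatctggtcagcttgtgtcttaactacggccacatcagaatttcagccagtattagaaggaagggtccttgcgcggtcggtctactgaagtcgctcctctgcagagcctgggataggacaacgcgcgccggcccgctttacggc
Topbp1, plus strand, chr9:103305177-103305326: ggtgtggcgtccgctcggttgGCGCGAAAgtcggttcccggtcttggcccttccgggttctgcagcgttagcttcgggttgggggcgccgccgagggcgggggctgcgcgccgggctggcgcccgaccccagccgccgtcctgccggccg
Clspn, plus strand, chr4:126556830-126556979: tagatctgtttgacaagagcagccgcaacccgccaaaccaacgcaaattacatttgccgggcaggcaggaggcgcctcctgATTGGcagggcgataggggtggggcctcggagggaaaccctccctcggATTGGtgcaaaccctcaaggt
A match is a description of the letters and not a binding site, and a window without a match says only that these letters are not in it.

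The other genes of the pathway, in lists chosen with earlier results of these data known, are given by their counts, against 9.22% of all genes called lower and 2.25% higher with age in HSC. Of 8 genes of RPA and the clamp loader, which mark and prime the stalled fork, 5 fell and 0 rose, with a median of -0.58 log2. Rpa3, the smallest RPA subunit, fell 2.20-fold (-1.14 ± 0.23; limma adjusted p = 0.00758), and the loader subunits Rfc2, Rfc4 and Rfc3 fell 2.07-fold, 1.82-fold and 1.56-fold. Of 9 genes of the clamp and of ATR activators and sensors, 2 fell and 0 rose (median -0.31): Etaa1, which activates ATR apart from Topbp1, 1.44-fold, and Nbn, of the break sensor MRN, 1.44-fold.

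Of 15 genes of fork protection and remodelling, 4 fell and 0 rose (median -0.16). They were Dscc1, of an alternative clamp loader, 2.19-fold (-1.13 ± 0.15; limma adjusted p = 7.17e-04), the fork remodeller gene Smarcal1, 1.50-fold, Wdhd1, which links helicase and polymerase, 1.43-fold, and the nuclease gene Dna2, 1.37-fold. Of 13 genes of CHK1 targets and brakes on cyclin-dependent kinases, 4 fell and 0 rose (median -0.32): Cdk2, 1.77-fold, Cdk1, 1.70-fold, the phosphatase gene Cdc25a, 1.51-fold, and Melk, 1.47-fold. These 4 drive the cell cycle, or in the case of Melk mark dividing cells, and are not brakes. The ATM arm, which answers double-strand breaks, had 0 of 7 genes called by limma, 1 at an unadjusted p under 0.05 and a median of -0.04. Its largest differences were -0.41 ± 0.16 for the phosphatase gene Ppm1d (limma adjusted p = 0.0926) and -0.29 ± 0.15 for Chek2 (limma adjusted p = 0.177).

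Markers of dividing cells were set beside these genes. Of 9 cell cycle markers, all were lower in HSC than in GMP at both ages, with medians of -1.05 in young and -1.48 in old mice. With age in HSC 1 of the 9 fell, Ccnb2, 1.63-fold (-0.70 ± 0.19; limma adjusted p = 0.0232), 7 had an unadjusted p under 0.05 and the median was -0.41. The proliferation marker Mki67 was at 0.32, not called. Of 13 G1/S genes 6 fell in old HSC and 0 rose (median -0.24), among them Gmnn, 2.20-fold, Ccne2, 1.97-fold, Tyms, 1.61-fold, and E2f3, 1.61-fold. Their part in the differences of the 10 genes was not tested. In GMP 0 genes of any of these 7 lists were called with age by limma, and 1, in the G1/S list, had an unadjusted p under 0.05.

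The counts of lower genes with age in HSC also moved with the arrays used. Without replicate 4 of both young groups, 6 of the 10 genes were called lower, 6 of RPA and the loader, 3 of the clamp and sensors, 4 of fork protection, 6 of CHK1 targets, 1 of the ATM arm, 4 of the cell cycle markers and 6 of G1/S. With array weights 7 of the cell cycle markers, 5 of the clamp and sensors and 7 of CHK1 targets were called lower, and with the replicate block of all 4 groups 7, 4 and 6. That block ties old and young arrays by number alone, a link the labels do not state. After quantile normalization 0 of the cell cycle markers, 1 of the clamp and sensors and 3 of RPA and the loader were. With the interquartile range as a covariate, 1 of the 10 genes was called lower, and 1 each of fork protection and G1/S and 0 of the other 5 lists. With young HSC replicate 1 as the only young HSC array, 0 were called lower by limma in the 10 genes and in all 7 lists. The part of the sex-linked signal and of the interquartile range in the age differences was not tested beyond these values.

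**Figure D5:**
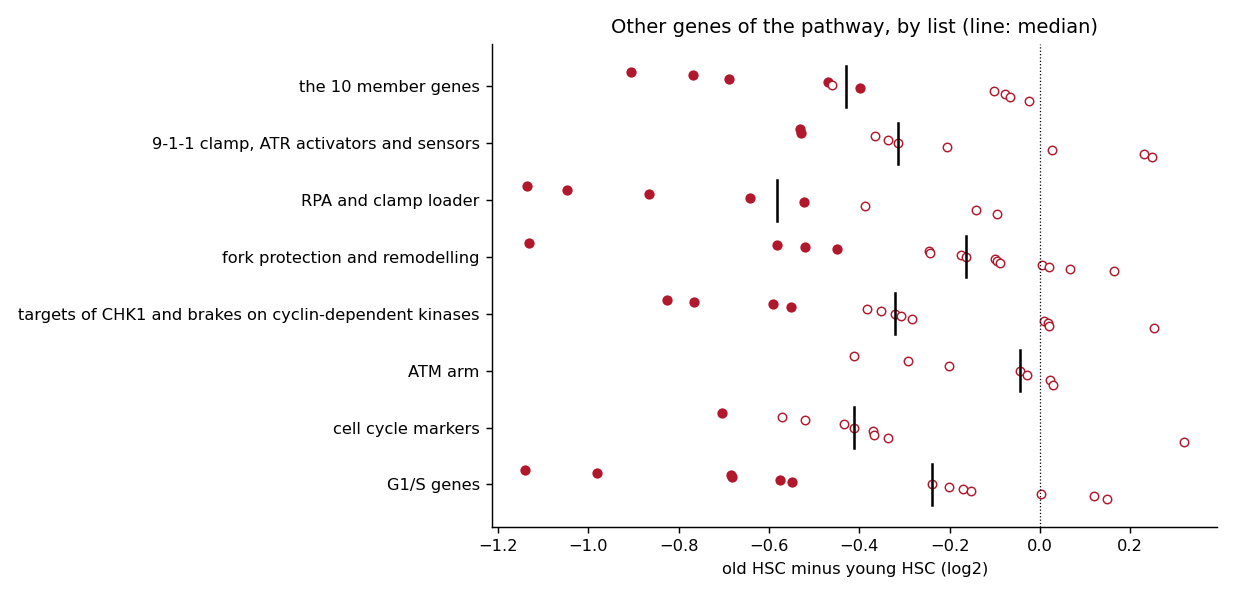
Difference between old and young HSC (log2, horizontal axis) for the 10 genes and for the other genes of the pathway in 7 lists, with filled points for a limma adjusted p under 0.05 and a line at the median of each list. RPA and the clamp loader have the lowest median, -0.58, and the ATM arm has 0 filled points.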

How the data were processed

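The authors' deposited table held log2 expression values of 23309 probe sets on 15 arrays, none of them missing. The 15 arrays did not share the same distribution of values, with interquartile ranges from 1.96 to 2.69 log2. The main fit used these values without further normalization. RMA, affy and limma are named, without a version, in the submitters' processing notes; aligner, build and probe filters are not given in the sources used here, and the log2 scale was read from the values. A gene was the brightest probe set with a single symbol (19296 genes; 1174 probe sets with several symbols and 1407 with none were left out). A mean per group was fitted over all 15 arrays with limma 3.58.1 (R 4.3.3, default empirical Bayes), with Benjamini-Hochberg adjustment over all genes and a threshold of 0.05, and was tested on simulated data. Precision is limited by the number of arrays. The members, lists and tests were chosen with earlier results of these data known. All 10 members were named, and per list up to 4 called genes by size, or 2 where none was called. Counts of SQ and TQ in the proteins were planned and not done here. Same-numbered young arrays of HSC and GMP deviated together (correlations over genes of 0.161 to 0.525). Their sex-linked signal matched too. The Y-linked Eif2s3y read 9.3, 7.7, 9.0 and 4.0 on young HSC replicates 1 to 4 and 9.3, 7.8, 8.9 and 4.3 on young GMP replicates 1 to 4. The labels state no pairing, and the main fit treated the arrays as unpaired. The other comparisons did not show this for every number. With the replicate number as a block, in young groups only, the same 5 members were called between the cell types.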

Additional observations from a re-analysis of the deposited data

Results flagged for a closer look

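Rad1 on young GMP replicate 4 read 7.94 log2, far below the other 3 arrays of its group, of which the nearest read 8.86. The gap took up 0.866 of the group's whole range, above Dixon's 95% critical value of 0.829 for 4 arrays. Of the 20 groups of 4 or 5 arrays examined, 10 genes in young HSC and young GMP, this was the only one, and chance flags about 1 in 20. Young HSC replicate 4, at 8.08, was also the lowest Rad1 value of its group, without passing the same limit.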

How the results depend on the processing

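With age in HSC 5 of the 10 genes were called. The number was 2 after quantile normalization, 1 with the interquartile range as a covariate, 3 with only the HSC groups in the fit and 0 with only young arrays of low Xist; leaving out 1 array it ran from 2 to 6, with 2 when the array left out was old HSC replicate 1, old HSC replicate 2, young HSC replicate 2 or young HSC replicate 3, and 3 for young HSC replicate 5. Tipin and Chek1 were called in every fit without 1 array, of which those without a GMP array could not move their estimates. With the replicate block of all 4 groups, Rad17 joined the 5 (6 called, Rad17 -0.57, adjusted p = 0.0416), and the block changed no other call of the 10 genes. For age this block ties old and young arrays by number alone, a link the labels do not state. Deviations of same-numbered old and young HSC arrays had correlations over genes of 0.094, -0.239 and 0.146. HSC against GMP in young mice went from 5 called to 3 with only young arrays of low Xist, 6 after quantile normalization and 7 with the interquartile range as a covariate (4 to 6 without 1 array), and in old mice from 8 to 6 with that covariate and to between 6 and 8 without 1 array. The gap between age differences went from 0 called to 3 with array weights and 1 without replicate 4 of both young groups (0 to 1 without 1 array). Age in GMP stayed at 0 in all fits.

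Signs turned only for uncalled values, and they stayed uncalled. With age in HSC, quantile normalization gave 0.14 for Atr, 0.17 for Atrip and 0.12 for Clspn; array weights 0.0926 for Atr; the replicate block 0.0405 for Atrip and 0.0209 for Timeless; the fit without replicate 4 of both young groups 0.054 for Timeless and 0.0324 for Clspn; only young arrays of low Xist 0.17 for Timeless; and the interquartile range 0.0562 for Rad17. With age in GMP, Chek1 was 0.0334 after quantile normalization and 0.0095 with the interquartile range, which also gave -0.0356 for Timeless and 0.0041 for Rad17. Only young arrays of low Xist gave -0.0468 for Tipin and -0.0161 for Topbp1, which was -0.0279 with array weights and -0.0176 without replicate 4 of both young groups. Atrip after quantile normalization was -0.0079 in HSC against GMP in young mice, 0.0436 in old mice and 0.0515 for the gap between age differences, where Timeless was 0.0157 without replicate 4 of both young groups and 0.12 with only young arrays of low Xist, and Rad17 0.0521 with the interquartile range. Without 1 array, the age difference in HSC ran from -0.21 to 0.12 for Atr, -0.18 to 0.0065 for Atrip, -0.13 to 0.054 for Timeless and -0.23 to 0.0324 for Clspn. That in GMP ran from -0.0159 to 0.21 for Atrip, -0.19 to 0.11 for Chek1, -0.0499 to 0.0633 for Timeless, -0.0176 to 0.0392 for Topbp1 and -0.30 to 0.0358 for Rad17. HSC against GMP ran from -0.014 to 0.21 in young mice and -0.18 to 0.0084 in old mice for Atrip, and the gap for Timeless from -0.14 to 0.0472. The cause was not tested. Signal over background was not available per probe set, so the lowest values have no detection call.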
